A study of Mus musculus with 8 samples.

Results

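The genes described here encode the proteasome, its activators and the factors that assemble it, measured in brain of diabetic mice on a ketogenic diet and on a normal diet. They were taken by symbol: every row of the count table named Psm, a letter from a to g and a digit, together with Pomp and Adrm1. This rule matched 53 of 17983 genes. Of these, 51 are known proteasome genes, and the other two, Psmc3ip and Psme3ip1, carry a matching name without being subunits and are given apart. Of the 51, 50 passed the filter on low counts, and Psmb11 did not.

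The ketogenic group held 4 libraries and the control group 4 libraries, all from brains of male db/db mice. This strain lacks a working long form of the leptin receptor and becomes obese and diabetic. Per the series description the diet, ketogenic or normal, started at 9 weeks and whole brains were collected at 6 months. Both groups carry db/db, and no non-diabetic mice were analysed here, so the comparison is one of diet within diabetes. Biochemical assays of proteasome activity, which the design text mentions, were not analysed here.

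The proteasome degrades proteins that carry ubiquitin chains. Its core particle is a barrel of stacked rings, with outer alpha rings that gate the entry and inner beta rings that hold the protease sites. A regulatory particle caps the barrel: its base has a ring of ATPases that unfold the substrate, and its lid removes the ubiquitin. Interferon can replace the catalytic beta subunits by inducible ones, which gives the immunoproteasome, and other caps, the activators, open the gate without ATPases. In neurons the proteasome takes part in synaptic protein turnover, and its loss of function is studied in neurodegeneration.

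Total counts were 38163795 to 40233361 in ketogenic libraries and 34450860 to 38738800 in control libraries. Ketogenic replicate 3 stood farthest out on the first principal component of log2 CPM (read counts scaled to a common library total), which held 22.9% of the variance. All 56 cell type markers listed for 7 classes were in the table, and only the T cell genes Cd3e and Cd3g were at 0 in any library. Neuron, oligodendrocyte and choroid plexus markers had 0 of 8 members past the threshold each, beside 6.52% of all tested genes. The summed level of the choroid plexus list was 1085 to 1398 CPM in ketogenic and 603.8 to 1167 CPM in control libraries. Of 8 microglia and macrophage markers 1 was higher, Tmem119, and of 8 endothelial markers 1, Esam. The summed levels of both lists overlapped between diets. For microglia and macrophages they were 355.1 to 438.1 CPM in ketogenic and 350.0 to 389.1 CPM in control libraries. For endothelial cells they were 202.9 to 235.3 CPM in ketogenic and 193.0 to 236.3 CPM in control libraries. Of 8 astrocyte markers 4 were lower in ketogenic brains (Aqp4, Gja1, Aldh1l1 and Gfap), and of 6 tested T cell and blood markers 4 were higher (Hba-a1, Hbb-bs, Hbb-bt and Alas2). The summed level of the astrocyte list was 4687 to 5316 CPM in ketogenic and 4823 to 5668 CPM in control libraries, and that of the blood list was 72.1 to 117.8 CPM in ketogenic and 18.0 to 54.9 CPM in control libraries. The part of these shifts in the proteasome values was not tested, and in whole brain fewer cells of a type and less RNA per cell cannot be told apart.

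Some proteasome messages were slightly higher in ketogenic brains and none passed as lower. Of 50 tested genes 10 rose, 0 fell and 40 did not pass, beside 6.52% of all tested genes past the threshold in either direction. The 10 are the core genes Psma5, Psmb4 and Psmb5, the base genes Psmc2, Psmd2 and Adrm1, the lid genes Psmd6 and Psmd13, the activator gene Psme2 and the assembly gene Psmd9. Among all 14895 tested genes 3.3% were higher and 3.22% lower by the same rule, namely a Benjamini-Hochberg adjusted p under 0.05 over all genes in the quasi-likelihood test of edgeR. At an unadjusted p under 0.05 in edgeR the proteasome genes numbered 22 higher and 1 lower, the lower one being Psme3. By that rule 1795 of all 14895 tested genes were higher and 1864 lower. DESeq2's Wald test and limma called 0 proteasome genes lower too. The median log2 fold change over the 50 was 0.11, beside -0.0029 over all tested genes. Of the 50, 38 (76%) were above 0, beside 49.3% of all tested genes. In 18 of the 50 every ketogenic library was above every control library, and in 0 every one was below, beside 7.22% and 6.51% of all tested genes.

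**Figure D1:**
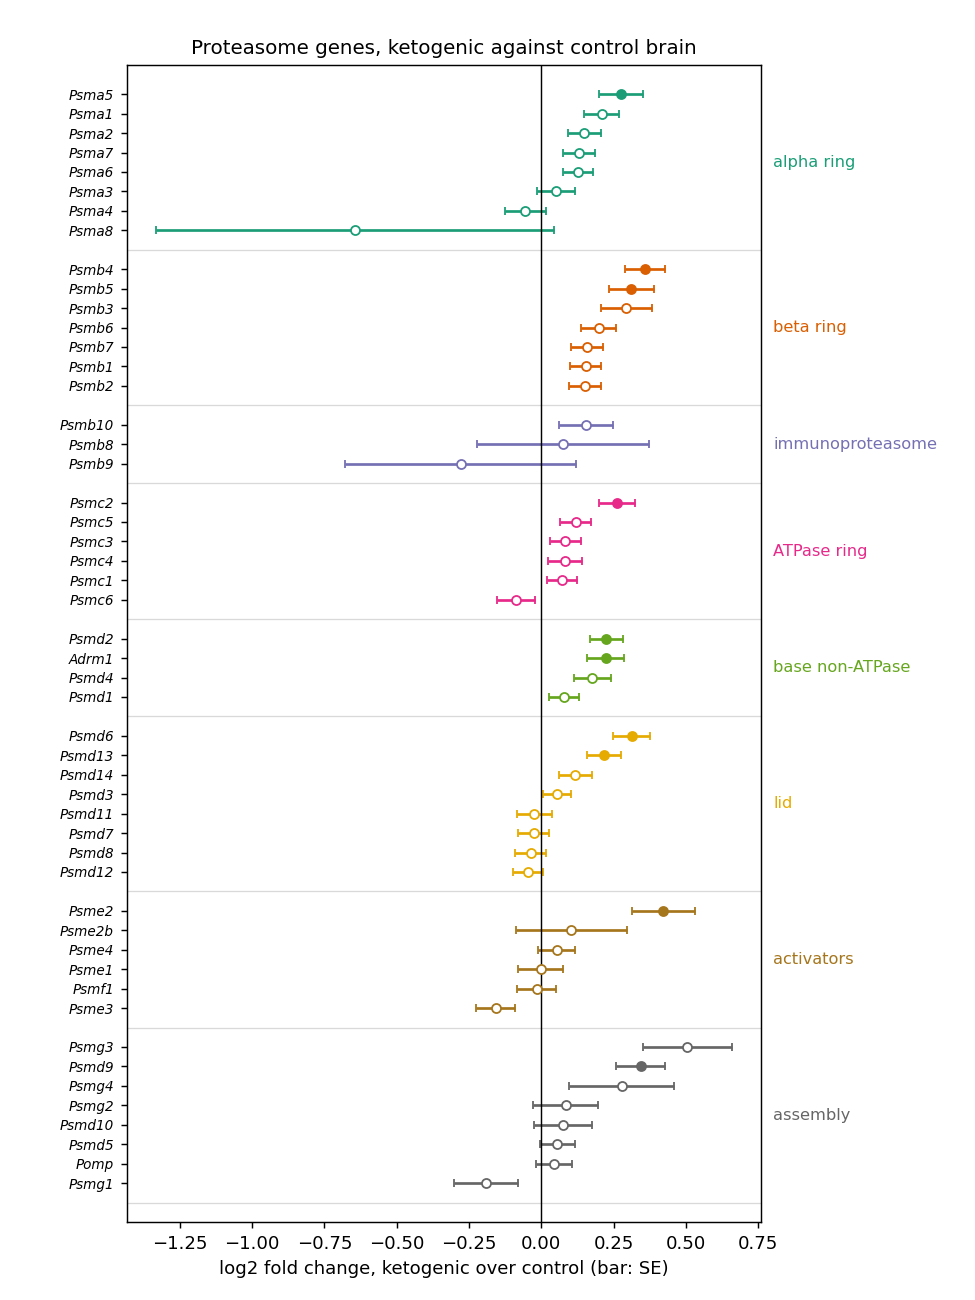
Log2 fold change, ketogenic over control, of the 50 tested proteasome genes, grouped by subcomplex from top to bottom, with bars of 1 standard error. Filled points are the 10 genes past the threshold. All 7 beta ring genes lie right of 0, whereas the lid genes split into 4 on each side, and the widest bars belong to Psma8, Psmb9 and Psmb8.

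The calls depended on single libraries. Without control replicate 1 or control replicate 2 the number of genes higher was 1, Psmb4. Leaving out ketogenic replicate 2 gave 2 genes, and leaving out ketogenic replicate 3 or control replicate 3 gave 3. The fit lacking ketogenic replicate 1 called 5 genes, and that lacking ketogenic replicate 4 called 6. The count was 13 without control replicate 4, when 1 gene, Psme3, was lower. Over all tested genes the share past the threshold in either direction moved as well, from 6.52% with all libraries. It was 0.971, 1.36, 2.81 and 12.7% without control replicates 1 to 4 in turn. Without ketogenic replicates 1 to 4 in turn it was 3.91, 1.31, 4.75 and 3.58%. Among the 10 genes control replicate 4 was the highest control library in 10, and control replicate 1 the lowest in 8. Control replicate 4 also had the largest total of the control libraries and control replicate 1 the smallest, and the part of depth in these values was not tested.

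Proteasome genes are short, and short genes of any kind had a higher median fold change than long ones. Their median length was 1356 bases, beside 3666 bases over all tested genes. Among genes under 1000 bases, 3 of 10 proteasome genes were higher, with a median log2 fold change of 0.29, beside 10.5% of all tested genes of that length and a median of 0.11. Between 1000 and 2000 bases 5 of 31 proteasome genes were higher, with a median of 0.10, beside 4.18% and a median of 0.04. Between 2000 and 4000 bases 2 of 7 were higher, with a median of 0.06, beside 2.97% and a median of -0.00092. Both proteasome genes over 4000 bases did not pass. After correction of each library for its trend on GC content and length, 3 of the 50 passed, Psmb4, Psmc2 and Psmd6, and the median over the 50 was 0.09. Over all tested genes 1.95% passed after that correction, beside 6.52% before it, and the median was 0.0087.

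Sequence upstream of the start is shown for the 3 genes that kept their call under that correction. It is also shown for Psmb5 and Psmb6, 2 of the 3 catalytic genes of the beta ring. No such sequence was found for Psmb7, the remaining catalytic gene, so its motifs are not known here. Psmb5 and Psmb6 carry the core of the antioxidant response element, the site through which the transcription factor made by Nfe2l1 is known to act on proteasome genes. Each line gives the 250 bases before a RefSeq start on GRCm38.p6, 5′ to 3′, on the strand of the gene. Capitals mark matches, on either strand, to 4 motifs. These were the box with the letters CCAAT, the GC box with the letters GGGCGG, the core of the antioxidant response element with the letters TGACNNNGC, and the interferon-stimulated response element.
Psmb4, chr3:94886959-94887208, minus strand: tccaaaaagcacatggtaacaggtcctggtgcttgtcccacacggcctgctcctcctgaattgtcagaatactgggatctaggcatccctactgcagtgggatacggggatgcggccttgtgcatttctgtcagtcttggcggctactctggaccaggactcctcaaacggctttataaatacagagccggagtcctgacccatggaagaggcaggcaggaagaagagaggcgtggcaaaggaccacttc
Psmd6, chr14:14120946-14121195, minus strand: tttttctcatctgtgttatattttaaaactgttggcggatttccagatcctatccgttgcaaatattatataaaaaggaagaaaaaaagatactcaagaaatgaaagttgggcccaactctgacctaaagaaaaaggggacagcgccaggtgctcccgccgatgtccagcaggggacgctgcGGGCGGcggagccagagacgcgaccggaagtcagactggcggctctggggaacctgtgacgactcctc
Psmc2, chr5:21785025-21785274, plus strand: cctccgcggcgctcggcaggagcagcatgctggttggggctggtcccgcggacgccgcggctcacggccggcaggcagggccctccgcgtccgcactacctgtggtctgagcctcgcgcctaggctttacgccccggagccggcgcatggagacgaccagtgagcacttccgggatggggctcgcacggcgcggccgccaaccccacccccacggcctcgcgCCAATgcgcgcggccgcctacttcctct
Psmb5, chr14:54617996-54618245, minus strand: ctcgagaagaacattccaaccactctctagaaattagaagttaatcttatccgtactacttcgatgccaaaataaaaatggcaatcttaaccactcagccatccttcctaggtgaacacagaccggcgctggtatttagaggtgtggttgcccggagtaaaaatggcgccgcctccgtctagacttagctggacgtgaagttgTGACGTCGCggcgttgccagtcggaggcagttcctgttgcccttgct
Psmb6, chr11:70525107-70525356, plus strand: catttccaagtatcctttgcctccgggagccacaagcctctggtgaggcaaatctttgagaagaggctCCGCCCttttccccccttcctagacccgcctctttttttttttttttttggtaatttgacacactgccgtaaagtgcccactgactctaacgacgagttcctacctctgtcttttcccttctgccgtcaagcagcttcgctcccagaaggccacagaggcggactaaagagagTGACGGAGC

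The Psmb4 stretch held none of the 4 motifs. In Psmd6 a GC box began 68 bases before the start, and in Psmc2 a CCAAT box began 28 bases before it. RefSeq gives Psmc2 a second start, and the 250 bases before that one (chr5:21786497-21786746, plus strand) held none of the 4 motifs. The antioxidant response element core began 47 bases before the start in Psmb5 and 9 bases before it in Psmb6. Sequences were found for 43 of the 51 proteasome genes and all 10 called ones. The antioxidant core was in 6 of the 43 (14%), beside 13.8% of the 11800 tested genes with a promoter sequence. It was in 3 of the 10 called genes, Psmb5, Adrm1 and Psmd9. In Psmd9 it shares 4 bases with a GC box. The CCAAT box was in 15 of 43 (34.9%, beside 40.1%), the GC box in 24 of 43 (55.8%, beside 61.9%) and the interferon element in 3 of 43 (6.98%, beside 3.04%), the 3 being Psmb3, Psmd4 and Psmd9. Among the 10 called genes the CCAAT box was in 2, the GC box in 5 and the interferon element in 1. All of these are matches to letters, given as a description.

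The alpha ring surrounds the entry pore of the core. Of its 8 genes 1 rose, 0 fell and 7 did not pass, and the median log2 fold change was 0.13. The share over all tested genes, for this and each later subcomplex, was 3.3% higher and 3.22% lower. With so few genes in each, a count of 0 or 1 says little about a subcomplex. Psma5, on chromosome 3 at 108256926 to 108279974 (GRCm38), had 40.5, 39.9, 42.8 and 37.6 CPM in ketogenic replicates 1 to 4, against 29.2, 33.4, 33.5 and 36.8 CPM in control replicates 1 to 4. All ketogenic libraries were above all control libraries, with control replicate 4 close to ketogenic replicate 4. Psma5 rose by a log2 fold change of 0.27 ± 0.08 (SE, edgeR adjusted p = 0.0441), a call that held only without control replicate 4 when libraries were left out singly. A noncoding antisense gene, 1700010K24Rik, shares exon bases with Psma5, and the use of strand in counting is not given in the sources used here.

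Psma1 had 68.8, 73.8, 79.1 and 72.2 CPM in ketogenic replicates 1 to 4, against 61.0, 63.4, 68.1 and 61.8 CPM in control replicates 1 to 4. The groups did not overlap, though the highest control value, in replicate 3, lay just under the lowest ketogenic one. Its log2 fold change of 0.21 ± 0.06 (SE, edgeR adjusted p = 0.0515) did not pass. Psma2, Psma6 and Psma7 had values of 0.15, 0.13 and 0.13 that did not pass either, and Psma3 and Psma4 had 0.05 and -0.06. Psma8, a testis form of one alpha subunit, was nearly silent: it had 15, 13, 12 and 9 reads in ketogenic replicates 1 to 4, against 5, 52, 10 and 4 reads in control replicates 1 to 4. Its log2 fold change of -0.65 ± 0.69 was set by control replicate 2 and was 0.83 without it.

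The beta ring, which carries the proteolytic sites, had every member above 0, from 0.15 to 0.36 in log2 fold change, as did the non-ATPase part of the base. Of its 7 genes 2 rose, Psmb4 and Psmb5, 0 fell and 5 did not pass. The median was 0.20, and all 7 had an unadjusted p under 0.05 in edgeR. By that rule 1795 of all 14895 tested genes were higher and 1864 lower. The median length in the ring was 949 bases. Tested genes of any kind under 1000 bases had a median log2 fold change of 0.11, with 68.9% above 0. Whether the beta ring differs from the other subcomplexes was not tested.

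Psmb4, a noncatalytic subunit whose gene is on chromosome 3 at 94884093 to 94886961, had 85.7, 102.4, 100.9 and 92.0 CPM in ketogenic replicates 1 to 4, against 68.7, 73.4, 73.7 and 81.2 CPM in control replicates 1 to 4. The groups did not overlap, and ketogenic replicates 2 and 3 were clearly the highest. Its log2 fold change of 0.36 ± 0.07 (SE, edgeR adjusted p = 0.0112), or 1.28-fold, held with each library left out in turn, with adjusted p of 0.0037 to 0.0487. It was the one proteasome gene whose call did so. After the GC and length correction its value was 0.28 (adjusted p = 0.0397), and without ketogenic replicates 3 and 4 the adjusted p was 0.0655.

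Psmb5 carries the chymotrypsin-like site, Psmb6 the caspase-like site and Psmb7 the trypsin-like site. Psmb5, on chromosome 14 at 54614119 to 54618022, had 65.1, 67.3, 71.7 and 60.1 CPM in ketogenic replicates 1 to 4, against 47.4, 51.9, 52.9 and 60.8 CPM in control replicates 1 to 4. Control replicate 4 lay above ketogenic replicate 4, so the groups overlapped, and Psmb5 was the one called gene in which they did. The log2 fold change was 0.31 ± 0.08 (SE, edgeR adjusted p = 0.0301), and it passed in 2 of 8 leave-one-out fits, those lacking ketogenic replicate 4 or control replicate 4. After the GC and length correction its value was 0.21 (adjusted p = 0.181).

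Psmb6 had 58.2, 62.0, 65.6 and 63.9 CPM in ketogenic replicates 1 to 4, against 51.2, 54.5, 56.1 and 55.8 CPM in control replicates 1 to 4. Psmb7 had 102.4, 104.5, 112.8 and 107.9 CPM in ketogenic replicates 1 to 4, against 90.9, 94.0, 99.6 and 98.6 CPM in control replicates 1 to 4. Neither gene's groups overlapped, and neither passed, with log2 fold changes of 0.20 ± 0.06 and 0.16 ± 0.05 (SE, edgeR adjusted p = 0.0595 and 0.0868). Psmb7 shares exon bases with Nek6. The noncatalytic subunit genes Psmb3 and Psmb1 had 0.29 and 0.15 (adjusted p = 0.0564 and 0.0916).

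Psmb2, a noncatalytic subunit with the lowest value of the ring, had 82.6, 77.5, 76.9 and 77.8 CPM in ketogenic replicates 1 to 4, against 72.9, 68.7, 74.1 and 68.0 CPM in control replicates 1 to 4. Its groups did not overlap either, with ketogenic replicate 1 apart from the rest. A log2 fold change of 0.15 ± 0.06 (SE, edgeR adjusted p = 0.109) did not pass.

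**Figure D2:**
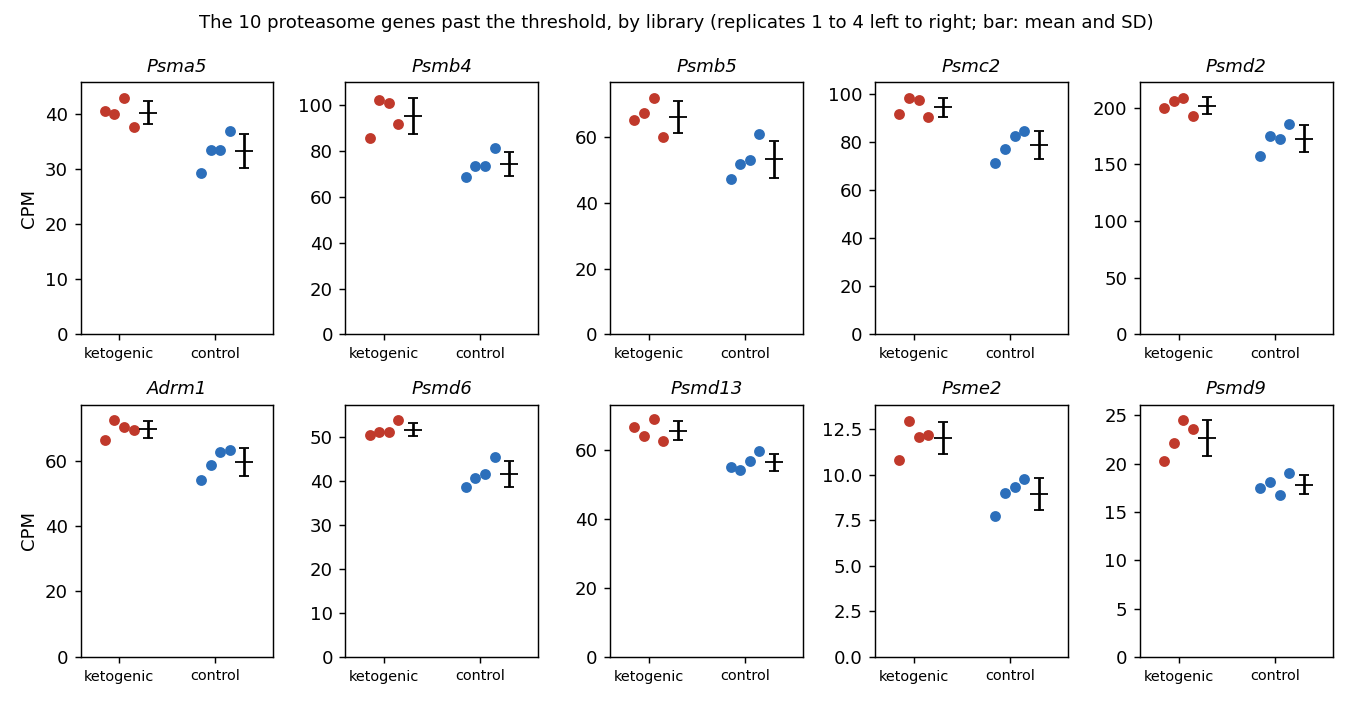
Level in CPM, on axes that start at 0, of the 10 proteasome genes past the threshold, with 1 point for each library (replicates 1 to 4 from left to right within a group), ketogenic at left and control at right, and bars for the mean and SD of 4 libraries. In Psmb5 the highest control point, 60.8 CPM, lies above the lowest ketogenic point, 60.1 CPM, and in the other panels the groups are separate.

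No immunoproteasome gene passed the threshold in ketogenic brains, and whether they differ from their constitutive counterparts was not tested. Psmb8, Psmb9 and Psmb10 encode the interferon-inducible replacements of Psmb5, Psmb6 and Psmb7. Of the 3 tested, 0 rose, 0 fell and 3 did not pass, beside 3.3% of all tested genes higher and 3.22% lower. These 3 had 0 at an unadjusted p under 0.05 in edgeR. All were far below the constitutive genes in level, and Psmb8 and Psmb9 had large standard errors.

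Psmb8 had 1.19, 2.89, 1.49 and 2.90 CPM in ketogenic replicates 1 to 4, against 1.94, 2.42, 1.79 and 1.89 CPM in control replicates 1 to 4. Ketogenic replicates 2 and 4 were the highest of the 8 libraries and ketogenic replicates 1 and 3 the lowest, so the diet groups overlapped fully. The log2 fold change was 0.08 ± 0.30 (SE, edgeR adjusted p = 0.912). Psmb9 had 15, 24, 16 and 26 reads in ketogenic replicates 1 to 4, against 19, 29, 20 and 23 reads in control replicates 1 to 4. It followed the same order within the ketogenic group, with replicates 2 and 4 above replicates 1 and 3, and its log2 fold change was -0.28 ± 0.40 (adjusted p = 0.72). Psmb9 shares exon bases with Tap1.

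Psmb10 had 22.3, 25.4, 25.0 and 27.0 CPM in ketogenic replicates 1 to 4, against 21.2, 21.2, 26.6 and 20.7 CPM in control replicates 1 to 4. Control replicate 3 reached the ketogenic range, and the log2 fold change was 0.15 ± 0.09 (SE, edgeR adjusted p = 0.334). Psmb11, the thymus form, was read 1, 2, 10 and 1 times in ketogenic replicates 1 to 4, and 6, 4, 0 and 0 times in control replicates 1 to 4, and was not tested.

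Per length, Psmb8 stood at 1.30, 3.05, 1.48 and 3.43% of the FPKM (a count scaled by gene length and library total) of Psmb5 in ketogenic replicates 1 to 4, against 2.92, 3.32, 2.41 and 2.22% in control replicates 1 to 4. The groups overlapped, and the spread was wider in ketogenic libraries, where the mean was 2.32 ± 1.08% against 2.72 ± 0.50% in control libraries (SD, n = 4 each). Psmb9 averaged 0.84 ± 0.20% of Psmb6 in ketogenic and 1.17 ± 0.22% in control libraries (SD, n = 4 each), and Psmb10 averaged 19.4 ± 1.3% of Psmb7 in ketogenic and 19.45 ± 1.99% in control libraries. No test was run on these ratios. Psmb10 was thus the inducible subunit message with an appreciable level in these brains.

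**Figure D3:**
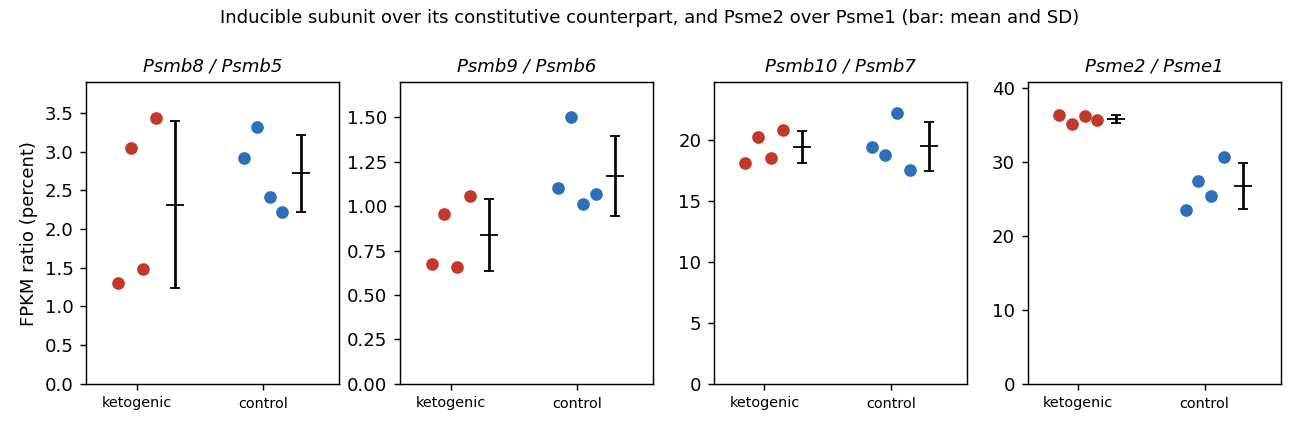
FPKM ratio in percent, on axes that start at 0, of each inducible subunit to its constitutive counterpart and of Psme2 to Psme1, with 1 point for each library, ketogenic at left and control at right, and bars for the mean and SD of 4 libraries. The first 3 panels overlap between diets, and the Psme2 to Psme1 ratio is 35.1 to 36.3% in ketogenic and 23.5 to 30.6% in control libraries.

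Many antigen processing genes are induced by interferon along with the immunoproteasome. At an unadjusted p under 0.05 in edgeR 0 of 12 such genes were higher, beside 1795 of all 14895 tested genes. Past the adjusted threshold 0 of the 12 were higher and 1 lower, beside 3.3% and 3.22% of all tested genes. The lower one was B2m, the light chain of class I molecules, which had 83.7, 97.7, 113.4 and 92.3 CPM in ketogenic replicates 1 to 4, against 193.5, 146.0, 135.8 and 116.3 CPM in control replicates 1 to 4. The groups were just separate, with the control values spread widely, and the log2 fold change was -0.61 ± 0.12 (SE, edgeR adjusted p = 0.013). Tap1, a subunit of the transporter that carries peptides into the endoplasmic reticulum, had a value of -0.32 (adjusted p = 0.488), and Irf1, which carries the interferon signal, had -0.13 (0.738).

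The ATPase ring of the base unfolds substrates and opens the gate. Of its 6 genes 1 rose, 0 fell and 5 did not pass, with a median log2 fold change of 0.08. Psmc2, on chromosome 5 at 21785283 to 21803787, had 91.5, 98.2, 97.4 and 90.3 CPM in ketogenic replicates 1 to 4, against 71.1, 76.9, 82.2 and 84.4 CPM in control replicates 1 to 4. No control library reached a ketogenic one, and ketogenic replicates 1 and 4 were nearest to the controls. Psmc2 rose by 0.26 ± 0.06 (SE, edgeR adjusted p = 0.025). Leaving out ketogenic replicate 2 or either of control replicates 1 and 2 ended the call (adjusted p up to 0.0879). After the GC and length correction its value was 0.33 (adjusted p = 0.0192).

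The other 5 ATPase genes lay between -0.09 and 0.12. Psmc5, Psmc3, Psmc4 and Psmc1 had 0.12, 0.08, 0.08 and 0.07, and in Psmc5 every ketogenic library was above every control library without a pass (edgeR adjusted p = 0.179). Psmc6 had 63.7, 69.8, 67.6 and 61.3 CPM in ketogenic replicates 1 to 4, against 75.5, 70.1, 69.7 and 63.5 CPM in control replicates 1 to 4. It was the ATPase gene with a value under 0, -0.09 ± 0.06, with overlapping groups, and that value was 0.01 after the GC and length correction.

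The non-ATPase part of the base holds the large scaffold subunits and the receptors for ubiquitin. Of its 4 genes 2 rose, Psmd2 and Adrm1, 0 fell and 2 did not pass, with a median log2 fold change of 0.20. Psmd2, a scaffold on chromosome 16 at 20651652 to 20663414, had 199.5, 206.2, 208.9 and 192.4 CPM in ketogenic replicates 1 to 4, against 157.3, 174.8, 172.5 and 185.8 CPM in control replicates 1 to 4. Control replicate 1 was far below the rest, and the groups did not overlap. Its log2 fold change of 0.23 ± 0.06 (SE, edgeR adjusted p = 0.0332) passed in 2 of 8 leave-one-out fits, those lacking ketogenic replicate 4 or control replicate 4.

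Adrm1 encodes a ubiquitin receptor, with its gene on chromosome 2 at 180171485 to 180176286. It had 66.3, 72.5, 70.2 and 69.4 CPM in ketogenic replicates 1 to 4, against 54.0, 58.6, 62.7 and 63.2 CPM in control replicates 1 to 4. Every ketogenic library was above the controls, with a log2 fold change of 0.22 ± 0.06 (SE, edgeR adjusted p = 0.0453), which passed only without control replicate 4 when libraries were left out singly. Psmd4, the other ubiquitin receptor, had 0.18 ± 0.06 (adjusted p = 0.103).

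Psmd1, the second scaffold, had 189.3, 193.8, 198.9 and 186.5 CPM in ketogenic replicates 1 to 4, against 172.0, 180.8, 193.8 and 182.2 CPM in control replicates 1 to 4. Control replicate 3 lay within the ketogenic range, and its log2 fold change was 0.08 ± 0.05 (SE, edgeR adjusted p = 0.392). Psmd1 shares exon bases with Htr2b.

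The lid removes ubiquitin from the substrate. Of its 8 genes 2 rose, Psmd6 and Psmd13, 0 fell and 6 did not pass. The median log2 fold change was 0.02, with 4 genes above 0 and 4 below. Psmd6, a scaffold subunit on chromosome 14 at 14112174 to 14120984, had 50.5, 51.1, 51.0 and 53.8 CPM in ketogenic replicates 1 to 4, against 38.5, 40.7, 41.6 and 45.4 CPM in control replicates 1 to 4. The ketogenic libraries were close together and all above the controls. Psmd6 rose by 0.31 ± 0.06 (SE, edgeR adjusted p = 0.0166), lost without control replicate 1 or control replicate 2 (up to 0.0653), and was 0.30 after the GC and length correction (adjusted p = 0.0295).

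Psmd13, on chromosome 7 at 140881968 to 140898643, had 66.7, 64.1, 68.9 and 62.6 CPM in ketogenic replicates 1 to 4, against 55.0, 54.2, 57.0 and 59.7 CPM in control replicates 1 to 4. The groups did not overlap, with a log2 fold change of 0.22 ± 0.06 (SE, edgeR adjusted p = 0.0407), which passed only without control replicate 4 when libraries were left out singly. Psmd13 shares exon bases with Sirt3 on the other strand. Psmd14, the deubiquitinase of the lid, had 0.12 ± 0.06 (adjusted p = 0.219).

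Psmd3, Psmd11, Psmd7, Psmd8 and Psmd12 had log2 fold changes of 0.05, -0.02, -0.03, -0.04 and -0.04, with standard errors of 0.05 to 0.06. Psmd12, the lowest of them, had 86.0, 81.0, 87.2 and 86.9 CPM in ketogenic replicates 1 to 4, against 85.0, 87.4, 90.5 and 88.8 CPM in control replicates 1 to 4, which overlap. Genes whose products sit in 1 complex at equal copy number thus differed in their change, from -0.04 in Psmd12 to 0.31 in Psmd6, and this difference between genes was not tested.

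**Figure D4:**
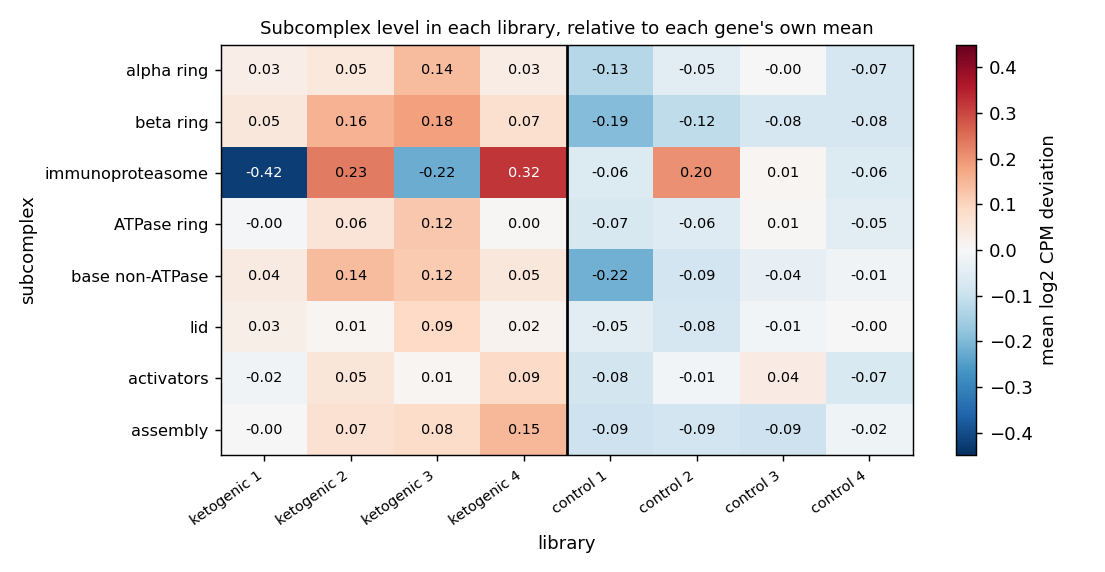
Mean deviation of log2 CPM from each gene's own mean over all libraries, by subcomplex (rows, without Psma8) and library (columns), ketogenic left of the line and control right of it. Beta ring values run from 0.05 to 0.18 in ketogenic and from -0.19 to -0.08 in control libraries, whereas immunoproteasome values are positive in ketogenic replicates 2 and 4 and negative in ketogenic replicates 1 and 3.

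Libraries of 1 group also differed among themselves across subcomplexes. The beta ring deviated by 0.05, 0.16, 0.18 and 0.07 in ketogenic replicates 1 to 4, against -0.19, -0.12, -0.08 and -0.08 in control replicates 1 to 4. The alpha ring deviated by 0.03, 0.05, 0.14 and 0.03 in ketogenic replicates 1 to 4, against -0.13, -0.05, -0.0035 and -0.07 in control replicates 1 to 4. In both rings the groups were separate, ketogenic replicate 3 was highest and control replicate 1 lowest. The lid deviated by 0.03, 0.01, 0.09 and 0.02 in ketogenic replicates 1 to 4, against -0.05, -0.08, -0.01 and -0.0030 in control replicates 1 to 4, a narrower range. The groups were separate in the lid too, by a small margin, though 4 of its 8 genes had a log2 fold change below 0. They were also separate in the non-ATPase part of the base. In the assembly factors the lowest ketogenic value, -0.0033 in replicate 1, lay just above the highest control value, -0.0204 in replicate 4. The groups overlapped in the ATPase ring, the activators and the immunoproteasome. Summed over the 51 genes the level was 3550 to 3800 CPM in ketogenic and 3316 to 3508 CPM in control libraries, or 3650 ± 110 and 3398 ± 81.9 CPM (SD, n = 4 each).

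The activators moved unevenly. Psme1 and Psme2 encode the subunits of an interferon-inducible cap, Psme3 a nuclear cap, Psme4 a large cap that acts on histones, and Psmf1 a regulator that inhibits the core in vitro. Of the 6 genes 1 rose, Psme2, 0 fell and 5 did not pass, with a median log2 fold change of 0.03.

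Psme2, on chromosome 14 at 55587441 to 55591113, had 10.8, 12.9, 12.1 and 12.2 CPM in ketogenic replicates 1 to 4, against 7.71, 9.01, 9.30 and 9.78 CPM in control replicates 1 to 4. Ketogenic and control libraries were separate, with ketogenic replicate 1 nearest to the controls. Psme2 rose by 0.42 ± 0.11 (SE, edgeR adjusted p = 0.035), or 1.34-fold, the highest of the called proteasome genes. It passed in 2 of 8 leave-one-out fits, those lacking ketogenic replicate 1 or control replicate 4. After the GC and length correction its value was 0.34 (adjusted p = 0.0901). Psme2b is a near copy of Psme2 and had 0.10 ± 0.19, and counting could have split reads between them.

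Psme1 had 29.9, 36.8, 33.4 and 34.1 CPM in ketogenic replicates 1 to 4, against 32.8, 32.9, 36.7 and 31.9 CPM in control replicates 1 to 4. The groups overlapped fully, and the log2 fold change was -0.0019 ± 0.08 (SE, edgeR adjusted p = 0.991). Per length, Psme2 stood at 36.3, 35.1, 36.2 and 35.6% of Psme1 in ketogenic replicates 1 to 4, against 23.5, 27.4, 25.3 and 30.6% in control replicates 1 to 4. The ratio was nearly the same in every ketogenic library and above every control library. This ratio was chosen after the values were seen and was not tested. Psme1 shares exon bases with Emc9.

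Psme3 had 152.6, 151.2, 154.9 and 154.9 CPM in ketogenic replicates 1 to 4, against 196.1, 164.0, 174.2 and 149.9 CPM in control replicates 1 to 4. Control replicates 1 to 3 lay above every ketogenic library, and control replicate 4 lay below every ketogenic library, so the groups overlapped. The log2 fold change was -0.16 ± 0.07 (SE, edgeR adjusted p = 0.165), and without control replicate 4 it was -0.21 and passed. Psme4 and Psmf1 had 0.05 and -0.02.

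Assembly factors build the core and the base and leave the finished particle. Psmg1 to Psmg4 start the alpha ring, Pomp guides the beta subunits, and Psmd5, Psmd9 and Psmd10 hold the ATPases before the base closes. Of the 8 genes 1 rose, Psmd9, 0 fell and 7 did not pass, with a median log2 fold change of 0.08.

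A noncoding gene on the other strand, Gm26745, shares exon bases with Psmd9. Psmd9, on chromosome 5 at 123169413 to 123250131, had 20.2, 22.1, 24.5 and 23.6 CPM in ketogenic replicates 1 to 4, against 17.5, 18.1, 16.7 and 19.01 CPM in control replicates 1 to 4. The groups did not overlap, and ketogenic replicate 1 was the nearest to the controls. Psmd9 rose by 0.34 ± 0.08 (SE, edgeR adjusted p = 0.0304). It passed in 2 of 8 leave-one-out fits, those lacking ketogenic replicate 1 or control replicate 4, and had an adjusted p of 0.056 after the GC and length correction. Psmd5 and Psmd10, which bind other ATPases, had 0.06 and 0.07.

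Psmg3 had 4.63, 6.43, 5.81 and 5.59 CPM in ketogenic replicates 1 to 4, against 3.94, 3.67, 3.92 and 4.30 CPM in control replicates 1 to 4. No library overlapped between diets, and the log2 fold change of 0.50 ± 0.15, the highest of all tested proteasome genes, did not pass in edgeR (adjusted p = 0.0597). Its partner Psmg4 had 0.28 ± 0.18, and Psmg2 and Pomp had 0.08 and 0.04. Psmg1 had 9.99, 10.1, 9.96 and 9.95 CPM in ketogenic replicates 1 to 4, against 13.1, 9.68, 12.2 and 10.7 CPM in control replicates 1 to 4. Control replicate 2 was below the ketogenic libraries and the other controls above them, with a log2 fold change of -0.19 ± 0.11 (adjusted p = 0.308).

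Levels per length differed far more between genes than between diets. In the beta ring mean FPKM ran from 55.7 (Psmb6) to 117.4 (Psmb1) in ketogenic and from 48.3 to 105.1 in control libraries. In the ATPase ring it ran from 37.8 (Psmc6) to 137.1 (Psmc5) in ketogenic and from 40.1 to 125.9 in control libraries, and in the lid from 26.8 (Psmd11) to 82.8 (Psmd8) in ketogenic and from 27.2 to 84.7 in control libraries. The immunoproteasome genes stayed at or under 19.7 FPKM in ketogenic and 17.6 FPKM in control libraries. Among assembly factors Pomp, at 83.5 FPKM in ketogenic and 80.7 FPKM in control libraries, was at the level of the subunits, while Psmg3 had 6.46 and 4.54 FPKM. FPKM rest on 1 length per gene, so an isoform with another length would shift a gene's place in this order.

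**Figure D5:**
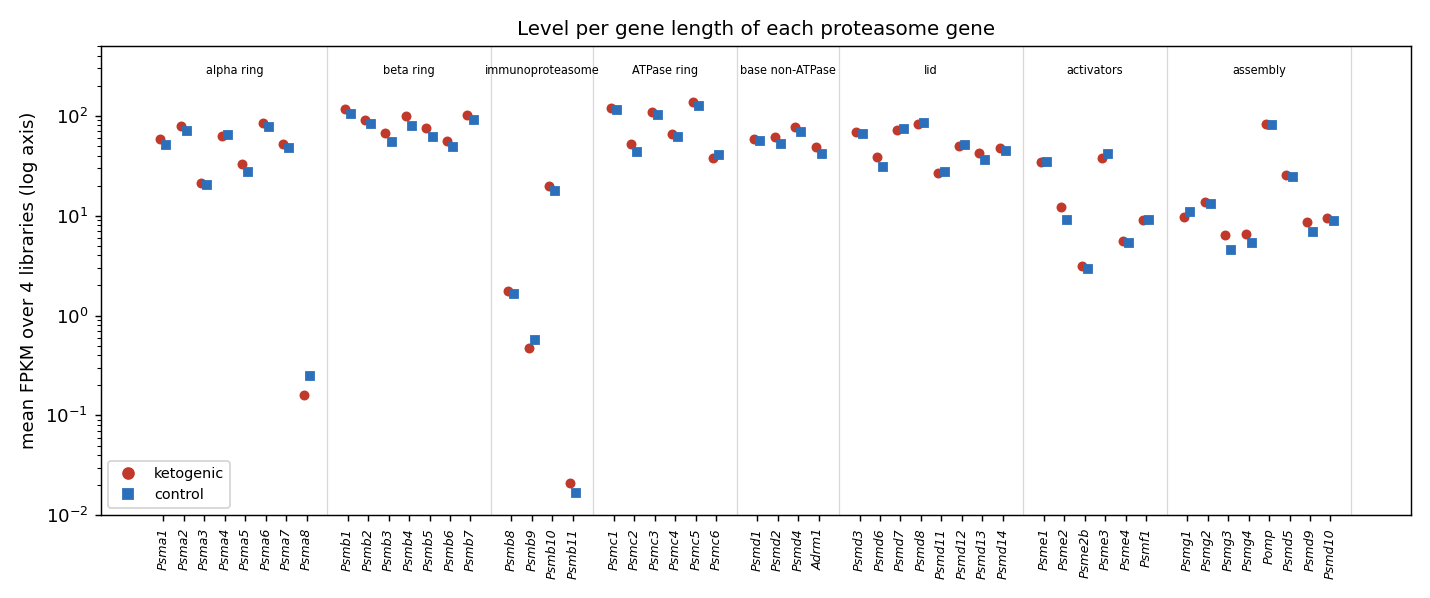
Mean FPKM over 4 libraries, on a log axis, of the 51 proteasome genes in order of subcomplex, with circles for ketogenic and squares for control. Core, ATPase, base and lid genes lie mostly between 20.8 and 131.5 FPKM over all libraries, activators and assembly factors mostly lower, and Psma8, Psmb9 and Psmb11 under 1 FPKM.

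Around the proteasome, Rps27a rose in ketogenic brains. It encodes ubiquitin fused to a ribosomal protein. Rps27a had 65.5, 79.6, 117.9 and 71.4 CPM in ketogenic replicates 1 to 4, against 52.6, 57.7, 60.1 and 51.0 CPM in control replicates 1 to 4. The groups were separate, with ketogenic replicate 3 far above the rest, and the log2 fold change was 0.60 ± 0.13 (SE, edgeR adjusted p = 0.0208). It was 0.39 without ketogenic replicate 3 (adjusted p = 0.0155). The call was lost in the fits lacking ketogenic replicate 2, control replicate 1 or control replicate 2 (adjusted p of 0.0541, 0.0815 and 0.0557) and with limma (0.051 and 0.0553). Ubb, which encodes ubiquitin alone, had 0.07 (adjusted p = 0.373).

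Nfe2l1, whose product raises transcription of proteasome genes when the proteasome is impaired, had 426.4, 411.9, 437.2 and 411.4 CPM in ketogenic replicates 1 to 4, against 401.4, 390.1, 396.8 and 427.3 CPM in control replicates 1 to 4. Control replicate 4 overlapped the ketogenic range, with a log2 fold change of 0.06 ± 0.05 (SE, edgeR adjusted p = 0.483). Vcp, the unfoldase that prepares substrates, had 0.19 (adjusted p = 0.0578) and its cofactor Nploc4 0.20 (0.0878). The shuttle receptor genes Rad23b, Ubqln1 and Ubqln2, which carry ubiquitinated proteins to the proteasome, had -0.16, -0.15 and -0.17, with every ketogenic library below every control library in each, and none passed (0.0839, 0.0905 and 0.0808). Vcp, Nploc4 and these 3 were named after their values were seen. Docked proteins, among them the deubiquitinases Usp14 and Uchl5, had 0 of 6 members past the threshold, beside 6.52% of all tested genes.

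The genes matched by name only did not pass. Psmc3ip, a factor of meiotic recombination, had a log2 fold change of 0.14 ± 0.25 at 1.46 to 2.50 CPM in ketogenic and 1.64 to 2.21 CPM in control libraries. Psme3ip1, whose product binds the nuclear cap, had 51.6, 50.5, 51.5 and 52.0 CPM in ketogenic replicates 1 to 4, against 61.0, 52.2, 60.5 and 53.8 CPM in control replicates 1 to 4. Every ketogenic library was below every control library by a small margin, with a log2 fold change of -0.15 ± 0.06 (SE, edgeR adjusted p = 0.175).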

How the data were processed

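Messenger RNA from 8 mouse brain libraries was compared, 4 ketogenic and 4 control. Per the labels' protocols, 1.3 ug of total RNA entered each SMARTER library. The authors deposited raw counts per gene symbol and FPKM values. The deposited FPKM follow from the counts, the column totals and a fixed length for each gene. All gene lengths given here, and those in the GC and length correction, were worked back from the counts and FPKM. The FPKM were otherwise used only to compare levels between genes, ratios included, and in 2 alternatives. The submitters' processing notes name the builds GRCm38 and mm10. Which programs aligned and counted the reads, whether strand was used and which annotation served is not given in the sources used here. Counts summed to 34450860 to 40233361 per library.

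The main test was edgeR 4.0.16 (quasi-likelihood F test, TMM scaling, filterByExpr for low counts, a model of intercept and diet) on all 17983 genes, of which 14895 were tested. P-values were adjusted by Benjamini-Hochberg over all tested genes, with a threshold of 0.05. The SE is the log2 fold change divided by the square root of F. The proteasome genes, subcomplexes and other lists were chosen with earlier results of these data known, so no p over a list is given. Full values were given for proteasome genes past the threshold, the catalytic genes and their inducible forms, Psma1, Psmd1, and the smallest p and lowest fold change of each subcomplex, and for Nfe2l1 and genes of the other lists past the threshold, some of which are not reported here. Psmg3, Psme1, Psmb3 and others outside that rule were named after their values were seen. Nothing in the labels says that each library came from a separate mouse, so p-values measure the spread between these libraries, which may be technical.

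Alternatives were other scalings, no count filter, DESeq2 1.42.0, limma 3.58.1 on log2(FPKM + 1) and log2(FPKM + 0.1), a replicate block, other thresholds, libraries left out, and a loess trend (span 0.3) on GC content and log2 length removed. GC content, from the longest GENCODE M21 transcript, was known for 98.1% of genes. Gene bounds and exon overlaps are from GENCODE M21 on GRCm38, and promoter sequences from RefSeq GRCm38.p6. The edgeR step was tested on simulated data. Genes with overlapping neighbours or near copies are uncertain.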

Additional observations from a re-analysis of the deposited data

Results flagged for a closer look

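In groups of 4 libraries, a library was singled out where its gap to the nearest other library took more of the group's range than Dixon's 95% critical value allows, which chance does in about 1 of 20 groups. Among 106 gene and group combinations of the 53 matched genes there were 9 such values. Psma8 had 1.45 CPM in control replicate 2, beside 0.102 to 0.28 CPM in the other control libraries, and this library set the sign of its fold change. Psmb9 had 0.807 CPM in control replicate 2, beside 0.559 to 0.589 CPM. Psmb11 had 0.266 CPM in ketogenic replicate 3, beside 0.0257 to 0.0489 CPM. These are the least abundant of the proteasome genes. Psmb10 had 26.6 CPM in control replicate 3 (others 20.7 to 21.2 CPM), Psmd3 had 145.8 CPM in control replicate 3 (138.7 to 138.9 CPM), and Psmg2 had 11.3 CPM in control replicate 3 (14.99 to 15.27 CPM). Psmb2 had 82.6 CPM in ketogenic replicate 1 (76.9 to 77.8 CPM), Psmg4 had 4.26 CPM in ketogenic replicate 4 (3.29 to 3.42 CPM), and Psmd8 had 119.1 CPM in control replicate 2 (130.5 to 132.5 CPM). None of the 10 genes past the threshold is among them.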

How the results depend on the processing

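As reported, 971 genes passed the threshold, with 10 proteasome genes higher and 0 lower. Leaving out single libraries, the counts ran from 146 to 1900 genes, from 1 to 13 proteasome genes higher and from 0 to 1 lower. Without ketogenic replicates 3 and 4 together they were 90 genes and 0 proteasome genes. With the DESeq2 Wald test they were 1767 and 16, after correction for GC content and length 290 and 3, and with limma 489 genes on log2(FPKM + 1) and 560 on log2(FPKM + 0.1), with 9 and 11 proteasome genes. At an adjusted p under 0.10 there were 2009 genes and 16 proteasome genes, and at 0.01 there were 79 and 0. Other scalings and no count filter gave 11 to 12 proteasome genes. With a replicate block 1528 genes and 13 proteasome genes passed, and 6 with the block and that correction together. Same-numbered libraries correlated in their deviations from the group means by 0.0218 to 0.0759, and not every library correlated best with its own number. The labels do not say whether equal numbers mark pairs, and correlations this small, with 4 libraries per group, cannot decide it. Direction turned in genes that did not pass: Psma8 to 0.83 without control replicate 2, Psmc6 to 0.01 after that correction (0.0091 alone, 0.0087 with the block), and Psmb8 to -0.013 with limma on log2(FPKM + 0.1), -0.0027 with the replicate block and -0.057 with the block and the correction. Over the fits lacking 1 library Psma8 ran from -0.99 to 0.83 and Psmb8 from -0.11 to 0.27. The cause was not tested. Depth limits Psma8, Psmb8, Psmb9 and Psmb11.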
